A study of Homo sapiens with 8 samples.

Results

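The genes described here are 41 cytosolic and mitochondrial chaperones and co-chaperones, taken from a fixed list of symbols, and 39 of them had a probe set that the array annotation names. HSF2 and AHSA1 had none and were not analysed here. HSPA1A and HSPA1B encode nearly the same protein and share their probe sets, so they were read as 1 gene, written HSPA1A/HSPA1B, which leaves 38 measured genes. Of these, 37 were bright enough to test, among 9889 tested of 19779 measured genes. CRYAB, a small heat shock protein, was too dim. HSPB11 is listed under its current symbol IFT25 in the annotation and works in intraflagellar transport, so it is a chaperone by its older name only.

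The study asked which genes respond to loss of BMI1, a core subunit of the Polycomb repressive complex PRC1, in neuroblastoma, a childhood tumour of the sympathetic nervous system. It used 4 established human neuroblastoma lines, SK-N-DZ, SK-N-BE, SH-SY5Y and NB-39-nu. Each line gave 1 array from cells infected with the control lentivirus shCont (the vector pLKO.1, labelled mock) and 1 from cells infected with shBMI1-1, a single hairpin against BMI1, so the groups held 4 arrays each. All 8 arrays thus come from lentivirus-infected cells, and RNA was taken between day 8 and day 14, with the day of each sample not given. No second hairpin or rescue is labelled, and no line has a second array of a condition. No label names a heat shock, a drug or a DNA-damaging agent.

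Chaperones bind unfolded or partly folded proteins and help them reach or keep their shape. HSP70 proteins work in cycles with J-domain proteins, which bring clients and trigger ATP hydrolysis, and with exchange factors such as the HSP110 and BAG proteins. HSP90 takes over clients such as kinases and steroid receptors with its own co-chaperones, the ring-shaped CCT complex folds actin and tubulin, and a separate set works in mitochondria. Under proteotoxic stress the transcription factor HSF1 binds heat shock elements in the promoters of many of these genes.

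A heat shock element is built from repeats of the unit GAA in alternating orientation. The windows below, from 250 bases before a RefSeq start up to that start on GRCh38.p14, belong to 4 genes described below that hold such an element. No match was found in the window of BAG3, which is also described below. Capitals mark each run of adjoining units, searched as GAANNTTC or TTCNNGAA, which are each their own reverse complement. HSPA1A lies at chr6:31815293-31815542 (plus strand), HSPA1B at chr6:31827488-31827737 (plus strand), HSPA8 at chr11:123062137-123062386 (minus strand) and CHORDC1 at chr11:90223050-90223299 (minus strand).
HSPA1A: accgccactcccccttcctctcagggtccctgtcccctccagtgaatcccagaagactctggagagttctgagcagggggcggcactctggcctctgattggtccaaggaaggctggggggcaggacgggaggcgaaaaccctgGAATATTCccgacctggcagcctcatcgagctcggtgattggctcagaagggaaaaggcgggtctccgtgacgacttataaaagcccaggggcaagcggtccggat
HSPA1B: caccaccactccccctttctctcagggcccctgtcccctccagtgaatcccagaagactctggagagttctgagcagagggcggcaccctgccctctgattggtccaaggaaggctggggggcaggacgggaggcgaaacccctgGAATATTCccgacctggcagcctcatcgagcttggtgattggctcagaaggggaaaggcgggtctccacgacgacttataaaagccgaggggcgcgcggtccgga
HSPA8: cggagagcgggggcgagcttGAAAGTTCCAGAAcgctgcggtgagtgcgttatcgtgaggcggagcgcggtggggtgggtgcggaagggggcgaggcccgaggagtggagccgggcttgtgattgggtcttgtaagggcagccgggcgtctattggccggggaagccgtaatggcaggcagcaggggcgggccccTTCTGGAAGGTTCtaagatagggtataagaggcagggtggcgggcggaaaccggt
CHORDC1: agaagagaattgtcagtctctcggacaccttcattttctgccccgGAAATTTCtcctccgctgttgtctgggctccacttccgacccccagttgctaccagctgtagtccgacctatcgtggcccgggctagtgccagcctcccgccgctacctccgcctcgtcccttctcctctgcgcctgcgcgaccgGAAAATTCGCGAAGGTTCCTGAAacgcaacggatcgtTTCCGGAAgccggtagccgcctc

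Over the table's whole windows of 300 bases, which run 50 bases past the start, HSPA1A and HSPA1B are near copies, with 277 of 299 bases identical once shifted by 1 base. Each holds the short element, at 106 and 105 bases before the start. HSPA8 holds a longer element of adjoining units at 230 and again at 55 bases before its start, and CHORDC1 a run of overlapping ones that begins at 60 bases. Promoters were found for 35 of the 41 symbols, some with several starts. The longer form, GAANNTTCNNGAA or TTCNNGAANNTTC, contains the short one and was found in 7 of the 51 windows of these genes (CHORDC1, DNAJA1, DNAJB6, HSP90AA1, HSP90AB1, HSPA8 and HSPD1), against 0.490% of all 35116 promoter windows of 300 bases. The short form was found in 19 of the 51, against 13.5% of all windows. A match is a description of the letters and does not show binding.

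BMI1 itself was lower after knockdown in 4 of 4 lines, with 24.6% of the control signal left in NB-39-nu, 39.4% in SK-N-DZ, 65.0% in SK-N-BE and 65.5% in SH-SY5Y. Its mean log2 ratio was -1.15 ± 0.67 (SD, n = 4 lines; limma adjusted p = 0.277), and its probe set also matches the COMMD3-BMI1 read-through transcript. Adrenergic neuroblastoma markers stood above the table's median signal for 11 or 12 of 12 genes on each array, leukocyte markers for 0 to 2 of 5 and epithelial markers for 2 or 3 of 5. Fibroblast markers did so for 4 to 6 of 7, with summed signals from 1190 to 15745, and their sum went from 6854 to 15745 with knockdown in NB-39-nu. There LUM, a collagen-binding proteoglycan, went from 5522 to 14204 and PDGFRB from 380 to 103. The summed adrenergic markers went from 46801 to 68489 in the same pair, with the neuronal STMN2 from 1630 to 16825. The part of these markers in the NB-39-nu ratios below was not tested. All arrays had a trimmed mean signal of 500, and the 3' over 5' signal, a sign of RNA quality, ran from 0.975 to 1.12 for GAPDH and from 3.81 to 6.01 for ACTB. The ACTB ratio was 6.01 and 4.82 in the control and knockdown of NB-39-nu, and lowest in the SK-N-BE control, and its part in the results was not tested. The 2 arrays of a line correlated at 0.953 or more across genes, and arrays of different lines at 0.891 or less.

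Chaperone levels differed far more between the cell lines than with the knockdown. Levels differed between the 4 lines for 35 of the 37 tested members (limma F test with Benjamini-Hochberg adjustment, adjusted p below 0.05), where 79.9% of all tested genes did. The exceptions were HSF1 (adjusted p = 0.0895) and HSPA4 (adjusted p = 0.345). HSPA2 is counted among the 35, though only its high SK-N-BE values brought it past the filter. The median member spanned 1.40 on the log2 scale from its highest to its lowest line, and the median tested gene 1.15. Members were also brighter than the typical tested gene, with a median log2 level of 11.84 against 10.07. In these tests the 2 arrays of a line, 1 control and 1 knockdown, serve as its repeats after the mean knockdown effect is removed. The spread left holds line-specific knockdown responses together with differences between infections and arrays. The p-values rest on that spread and say nothing on other stocks of a line.

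**Figure D1:**
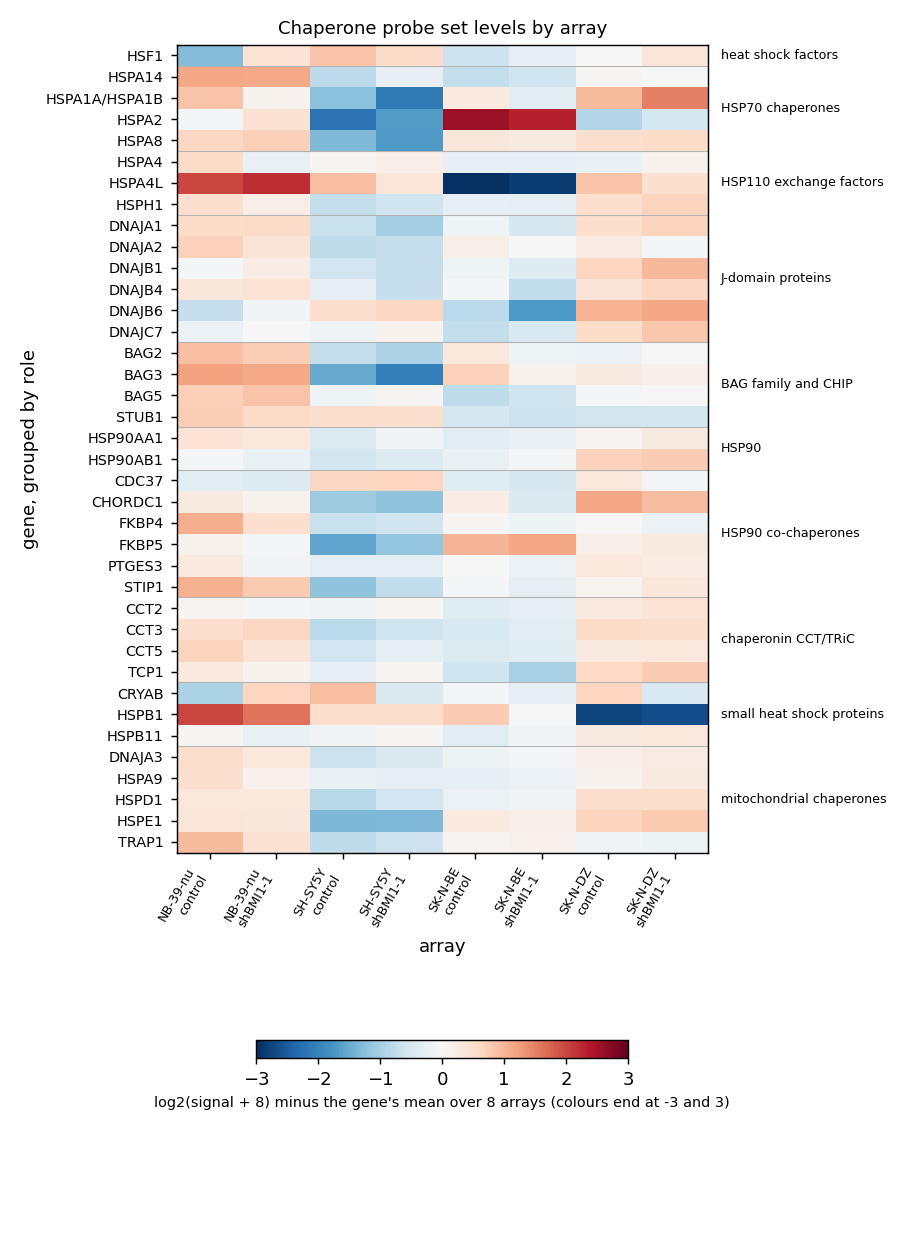
Heat map of log2(signal + 8) minus each gene's mean over the 8 arrays, for the 38 measured members in rows grouped by role and the 8 arrays in columns, with colours ending at -3 and 3. The pair of columns of SH-SY5Y is mostly blue, and the 2 arrays of a line look alike for most genes.

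SH-SY5Y had the lowest levels of most members. Its control array was the lowest of the 4 for 24 of 38 measured members, while the highest control value lay in NB-39-nu for 18 and in SK-N-DZ for 15. Against the mean of the other lines, 25 of 37 tested members (67.6%) were lower in SH-SY5Y, against a background of 21.7% of all tested genes, and 5 were higher, against 30.2%. The median member lay -0.69 below the other lines on the log2 scale, and the median tested gene at 0.10. With the filter raised to the 75th percentile of gene levels, 23 of 32 members were lower, against 29.1% of all genes tested there. The comparisons of a line with the mean of the others were added after the data had been seen.

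Of the other lines, NB-39-nu was higher than the others for 21 of 37 members (56.8%), where 24.5% of all genes were, and lower for CDC37 alone, where 23.6% of all genes were. SK-N-DZ was higher for 19 (51.4%) against 25.0% and lower for 3 (HSPA2, HSPB1 and STUB1) against 25.7%. SK-N-BE was lower for 15 (40.5%) against 24.9% and higher for 6 (BAG3, FKBP5, HSPA2, HSPA8, HSPB1 and HSPE1) against 23.6%. These counts are linked, because a low SH-SY5Y raises each other line relative to the mean of its rest. Without SH-SY5Y, NB-39-nu was higher for 17 of 37 members against 24.2% of all genes, SK-N-DZ for 17 against 25.9%, and SK-N-BE lower for 26 against 25.4%. HSPA2 reached the filter only through its high SK-N-BE values, and without it 24 of 36 members were lower in SH-SY5Y, 5 higher in SK-N-BE and 2 lower in SK-N-DZ.

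**Figure D2:**
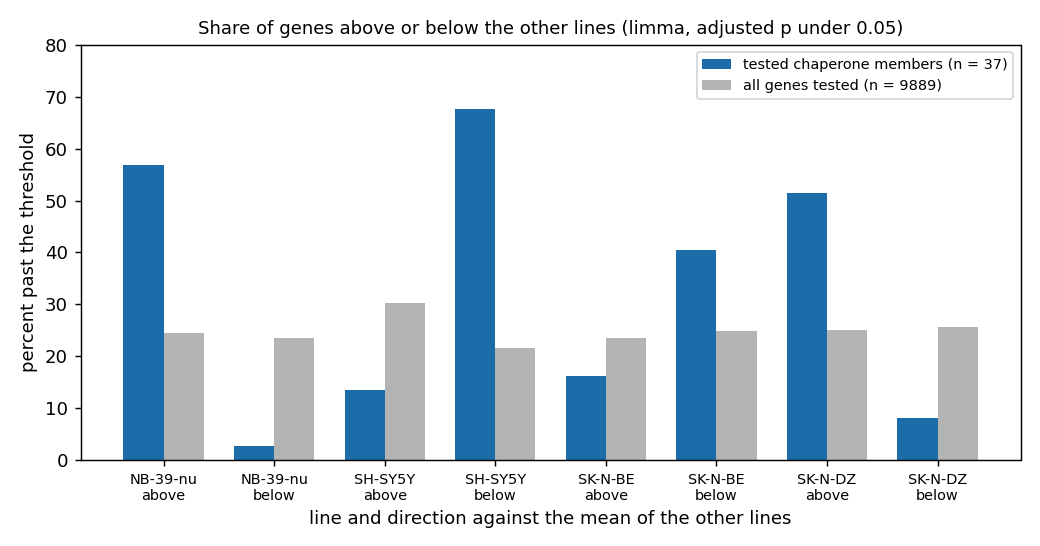
Bars give the percent of genes above or below the mean of the other lines (limma, adjusted p under 0.05), for the 37 tested members in blue and all 9889 tested genes in grey, by line and direction. The widest gap is for genes lower in SH-SY5Y, at 67.6% of members against 21.7% of all genes.

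The HSP70 chaperones HSPA8, HSPA1A/HSPA1B and HSPA14 were lower in SH-SY5Y, and HSPA2 had its lowest signals there. HSPA8, which encodes the constitutive HSP70 that handles newly made proteins, gave control signals of 54757 in NB-39-nu, 50131 in SK-N-DZ, 44856 in SK-N-BE and 14026 in SH-SY5Y. The knockdown signals were 58239, 51892, 42809 and 10926 in the same order. Both SH-SY5Y arrays were below the other 6, and the difference was -2.02 on the log2 scale, or 4.05-fold (95% interval -2.24 to -1.79; limma adjusted p = 4.24e-06). The HSPA8 probe set is also annotated to small nucleolar RNAs within its introns. The stress-inducible HSPA1A/HSPA1B gave 4719 and 2782 (control and knockdown) in NB-39-nu, 5013 and 7399 in SK-N-DZ, 3195 and 2061 in SK-N-BE, and 1097 and 594 in SH-SY5Y. Again both SH-SY5Y arrays were the lowest, by -2.24 (95% interval -2.81 to -1.66; limma adjusted p = 0.000173), and SK-N-DZ was highest, by 1.63 (limma adjusted p = 0.000843). HSPA2, best known from the testis, read 30.6 and 48.6 in SH-SY5Y but 1058 and 897 in SK-N-BE, with 89.4 to 240 in the other two lines. Both SK-N-BE arrays were above the other 6, and both SH-SY5Y arrays were below the table's median signal. Its test is not given, because SK-N-BE alone lifted its mean level of 7.490 above the filter at 7.485. HSPA14, a ribosome-associated HSP70, was highest in NB-39-nu by 1.53 (limma adjusted p = 9.84e-05).

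Another HSPA1A/HSPA1B probe set showed a pattern of its own. It read 8883 in the SK-N-BE control array and 5977 after knockdown there, and between 1.25 and 47.0 in the other 6 arrays, so it lay near the bottom of the scale outside that line. The probe set used, and a further one that HSPA1L shares, were bright in all 4 lines. The HSPA1A/HSPA1B order of lines therefore depends on the probe set.

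The HSP110 exchange factors, relatives of HSP70 that reload it with ATP, split by line. HSPA4L gave 2583 and 2975 in NB-39-nu, 1158 and 897 in SK-N-DZ, 33.3 and 82.5 in SK-N-BE, and 1206 and 820 in SH-SY5Y. Its 2 arrays in SK-N-BE were far below the other 6, and the control value lay below the table's median signal. With that median as the lowest value allowed, the mean of the other lines was at least 16.4-fold higher than SK-N-BE (limma adjusted p = 8.69e-06 at the measured values). Both NB-39-nu arrays were above the other 6. The second HSPA4L probe set was low in SK-N-BE too, at 57.2 and 81.0. HSPH1 was lower in SH-SY5Y by -0.88 (limma adjusted p = 0.00032). HSPA4 had line means within 1.33-fold of each other on the probe set used, which ran from 5001 to 8680 over the 8 arrays. Its others above the filter ran from 296 to 1838, from 3785 to 6149 and from 151 to 498, so this evenness depends on the probe set.

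Of the 6 J-domain proteins, 4 were lower in SH-SY5Y (21.7% of all genes), 5 were higher in SK-N-DZ (25.0% of all genes) and 3 were lower in SK-N-BE (24.9% of all genes). DNAJA1, a main partner of HSPA8, lay at -1.13 in SH-SY5Y and DNAJB1, the partner most tied to the heat shock response, at -0.86, while DNAJB1 was higher by 1.07 in SK-N-DZ. DNAJB6, which suppresses aggregation, gave 541 and 828 in NB-39-nu, 1810 and 1976 in SK-N-DZ, 504 and 261 in SK-N-BE, and 1248 and 1358 in SH-SY5Y. SK-N-BE was lowest, at -1.68 (limma adjusted p = 0.00086). This DNAJB6 order is uncertain, because a brighter probe set annotated to both DNAJB6 and TMEM135 was highest in SK-N-BE, at 10319 in its control array.

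The BAG family and CHIP set the fate of clients on HSP70. All 4 measured members were higher in NB-39-nu, where 24.5% of all genes were. BAG3, which is induced by stress and feeds selective autophagy, read 4031 and 3835 in NB-39-nu, 2102 and 1923 in SK-N-DZ, 2832 and 1874 in SK-N-BE, and 610 and 417 in SH-SY5Y. The SH-SY5Y arrays were below all others, by -2.37 (95% interval -2.71 to -2.02; limma adjusted p = 1.09e-05), and the NB-39-nu arrays above all others, by 1.56. STUB1, which encodes the ubiquitin ligase CHIP, split the lines into pairs, with 20370 to 24531 in NB-39-nu and SH-SY5Y and 9302 to 10110 in both others.

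On the probe sets used, HSP90 itself varied less. HSP90AA1, the stress-inducible form, spanned 1.57-fold between line means, and HSP90AB1, the constitutive form, 2.31-fold, with SK-N-DZ highest by 0.98 (limma adjusted p = 5.8e-05). Both were lower in SH-SY5Y, by -0.34 and -0.64. The HSP90AA1 probe set used ran from 28407 to 50359 over the 8 arrays. Its others above the filter ran from 8620 to 28319, from 4081 to 11979 and from 19847 to 37631. The span of HSP90AA1 thus depends on the probe set. Among 6 HSP90 co-chaperones, 5 were lower in SH-SY5Y, where 21.7% of all genes were. CHORDC1, an HSP90-binding protein that is itself heat-induced, read 2074 and 1879 in SH-SY5Y, against 3218 to 9629 elsewhere, a difference of -1.51 (limma adjusted p = 4.9e-05). FKBP5, a co-chaperone of steroid receptors and a glucocorticoid-induced gene, read 1543 and 2086 in SH-SY5Y and 9450 and 10478 in SK-N-BE, the lowest and the highest of the 4 lines. STIP1, the adaptor that links HSP70 to HSP90, was at -1.30 in SH-SY5Y and 1.24 in NB-39-nu. The kinase adaptor CDC37 went the other way. It was higher in SH-SY5Y by 0.85, with 2876 and 2922 against 1338 to 2312 in the other lines (limma adjusted p = 0.000802).

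The CCT ring showed another order of lines. The 4 measured subunits (TCP1, CCT2, CCT3 and CCT5) were all lower in SK-N-BE and all higher in SK-N-DZ than the mean of the others. Of all genes, 24.9% were lower in SK-N-BE and 25.0% higher in SK-N-DZ. TCP1 lay at -1.05 in the former and 0.91 in the latter, and CCT2 at -0.44 and 0.47. In SH-SY5Y, CCT3 and CCT5 were lower, at -0.93 and -0.57, while TCP1 and CCT2 stood at -0.14 and -0.04 and did not pass. The TCP1 probe set is also annotated to a small nucleolar RNA within the gene. Of 4 further CCT subunits outside the list, 2 were lower in SH-SY5Y, where 21.7% of all genes were. Of the same 4, 2 were lower in SK-N-BE (24.9% of all genes) and 3 higher in SK-N-DZ (25.0% of all genes).

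HSPB1, a small heat shock protein that holds unfolded proteins without ATP, read 8994 and 7007 in NB-39-nu, 320 and 348 in SK-N-DZ, 3815 and 2270 in SK-N-BE, and 3263 and 3237 in SH-SY5Y. It spanned 23.3-fold between line means. Both SK-N-DZ arrays were below the other 6, by -3.63 (95% interval -4.03 to -3.24; limma adjusted p = 1.75e-06). HSPB11 spanned 1.41-fold.

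The 5 mitochondrial chaperones were all lower in SH-SY5Y (21.7% of all genes) and all higher in NB-39-nu (24.5% of all genes). HSPE1, the lid of the mitochondrial folding chamber, read 8273 and 8488 in SH-SY5Y and 24279 to 36449 elsewhere, a difference of -1.78 (95% interval -1.97 to -1.59; limma adjusted p = 3.76e-06). HSPD1, which forms the chamber, was at -0.94, the mitochondrial HSP90 TRAP1 at -0.93, the mitochondrial J-domain protein DNAJA3 at -0.71 and the mitochondrial HSP70 HSPA9 at -0.35. HSPD1 and HSPE1 are transcribed away from each other, and the window before HSPE1 at chr2:197500129-197500378 (plus strand, GRCh38.p14) shares 104 bases with that before an HSPD1 start. It was chosen after the levels were seen, because both genes were lower in SH-SY5Y. Capitals mark the E-box CACGTG, the sequence that MYC family proteins bind, which 6 of the 51 windows and 7.26% of all promoter windows hold. Among the 6, the HSPE1 window and an HSPD1 window hold the same site. Overlapping windows of HSF2, a gene not analysed here, share another.
HSPE1: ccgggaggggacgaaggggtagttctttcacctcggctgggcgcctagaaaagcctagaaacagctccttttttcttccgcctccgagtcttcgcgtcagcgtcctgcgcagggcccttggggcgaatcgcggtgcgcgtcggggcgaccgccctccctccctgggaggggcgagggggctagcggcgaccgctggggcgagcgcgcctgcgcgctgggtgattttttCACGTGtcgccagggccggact

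MYCN, the MYC family member that drives many neuroblastomas, gave signals of 449 and 683 in SH-SY5Y and 43219 to 59743 in the other 6 arrays. Its part in the lower chaperone levels of SH-SY5Y was not tested, and with 1 line of low MYCN it cannot be told apart from other traits of that line. Of the 7 tested members whose promoter windows hold the longer heat shock element, 6 were lower in SH-SY5Y, DNAJB6 being the exception. Of the 25 other tested members with a promoter 17 were lower, where 21.7% of all tested genes were. The 17 include HSPA2, which reached the filter only through SK-N-BE.

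BMI1 knockdown changed none of the chaperones past the threshold over the 4 lines. In the limma fit with cell line as a block, 0 of 37 members had an adjusted p below 0.05, where 0.0101% of all tested genes (1 gene) did. At an unadjusted p below 0.05 there were 3 members, BAG3, CHORDC1 and DNAJC7, where 9.33% of all tested genes passed. The median member had a mean log2 ratio of -0.02, and the median tested gene 0.03, with 18 members higher and 19 lower. The median size of the mean ratio, regardless of sign, was 0.10 for members and 0.13 for all tested genes. With 4 lines the exact sign-flip test, two-sided, cannot give a p below 0.125.

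Few members shared a direction over the 4 lines. BAG5 and DNAJC7 were higher in 4 of 4 lines, where 10.6% of all tested genes were, and BAG3 and CHORDC1 lower in 4 of 4, where 7.64% were. BAG3, with the signals given above, had log2 ratios of -0.07 in NB-39-nu, -0.13 in SK-N-DZ, -0.59 in SK-N-BE and -0.54 in SH-SY5Y. The ratios were thus sizeable in SH-SY5Y and SK-N-BE and near 0 in the other two lines. The mean was -0.33 ± 0.27 (SD, n = 4 lines; limma SE 0.13, adjusted p = 0.508). CHORDC1 went from 5207 to 4634 in NB-39-nu, from 9629 to 8289 in SK-N-DZ, from 5074 to 3218 in SK-N-BE and from 2074 to 1879 in SH-SY5Y. Its mean log2 ratio was -0.30 ± 0.24 (SD, n = 4 lines; limma adjusted p = 0.499), and SK-N-BE stood apart at -0.66. Without SK-N-BE the mean was -0.18, and with the mean of all probe sets -0.016. A dimmer CHORDC1 probe set, below the filter, had a mean of 0.26. One above the filter that NAALAD2 shares read 0.36 in SK-N-BE and had a mean of -0.18, so the SK-N-BE value rests on the probe set used.

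DNAJC7, a co-chaperone that binds both HSP70 and HSP90, gave the most even response. It went from 3143 to 3567 in NB-39-nu, from 5236 to 6173 in SK-N-DZ, from 2154 to 2572 in SK-N-BE and from 3280 to 3821 in SH-SY5Y, log2 ratios of 0.18, 0.24, 0.26 and 0.22. The mean was 0.22 ± 0.03 (SD, n = 4 lines; limma SE 0.09, adjusted p = 0.513). However, its second probe set above the filter averaged -0.32 over the lines, and all its probe sets together 0.050, so the direction of DNAJC7 is uncertain. BAG5, an exchange factor of HSP70, went from 3185 to 3500, 1859 to 1918, 1138 to 1276 and 1771 to 1987 in NB-39-nu, SK-N-DZ, SK-N-BE and SH-SY5Y. Its mean log2 ratio was 0.13 ± 0.06 (SD, n = 4 lines; limma adjusted p = 0.722).

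**Figure D3:**
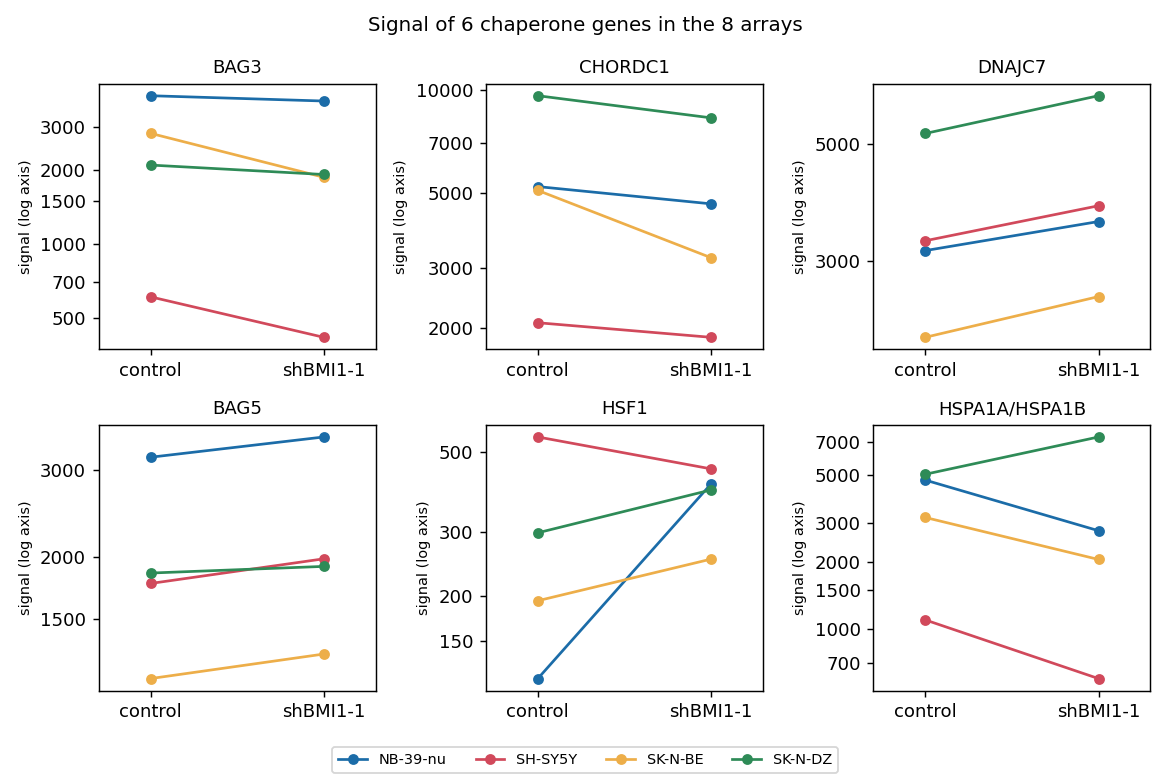
Signal on log axes in the control and shBMI1-1 array of each line for BAG3, CHORDC1, DNAJC7, BAG5, HSF1 and HSPA1A/HSPA1B, with 1 coloured line per cell line. Control and knockdown values of a line lie close for BAG5 and DNAJC7, HSF1 goes from 118 to 407 in NB-39-nu, and HSPA1A/HSPA1B is higher with knockdown in SK-N-DZ only.

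HSF1, the stress-activated regulator of the family, read 118 in the control array of NB-39-nu and 407 in its knockdown array, 298 and 392 in SK-N-DZ, 194 and 252 in SK-N-BE, and 549 and 448 in SH-SY5Y. Its log2 ratio was 1.72 in NB-39-nu, past 2-fold, and 0.38, 0.37 and -0.29 in the others. The mean was 0.55 ± 0.84 (SD, n = 4 lines; limma adjusted p = 0.616), or 0.15 without NB-39-nu and 0.82 without SH-SY5Y. The gene was dim, and its other probe set, below the filter, read -0.55 in NB-39-nu, so the higher value there rests on 1 probe set.

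HSPA1A/HSPA1B, chosen after its values were seen, had the lowest mean ratio of the tested members. Its log2 ratios from the signals given above were 0.56 in SK-N-DZ, -0.63 in SK-N-BE, -0.76 in NB-39-nu and -0.87 in SH-SY5Y, so it was higher in 1 line and lower in 3. The probe set shared with HSPA1L read 0.95, -0.82, -0.58 and -0.63 in the same order. The mean of the probe set used was -0.43 ± 0.67 (SD, n = 4 lines; limma adjusted p = 0.586; exact two-sided sign-flip p = 0.25). It was -0.76 without SK-N-DZ, -0.28 without SH-SY5Y and -0.22 with the mean of all probe sets, and none of these passed. HSPA8, also chosen after its values were seen, had log2 ratios between -0.36 in SH-SY5Y and 0.09 in NB-39-nu, and a mean of -0.07 ± 0.20 (SD, n = 4 lines; limma adjusted p = 0.824).

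Within single lines the ratio compares 1 array with 1 array, so a count past 1.5-fold carries no test. In SK-N-BE, 6 of 37 members (16.2%) were at least 1.5-fold lower, namely BAG3, CHORDC1, DNAJB4, DNAJB6, HSPA1A/HSPA1B and HSPB1, where 3.36% of all tested genes were. Of other probe sets above the filter, that of DNAJB4 read -0.66 in SK-N-BE and the HSPA1A/HSPA1B one shared with HSPA1L -0.82. The CHORDC1 one shared with NAALAD2 read 0.36, and the DNAJB6 ones shared with TMEM135 -0.41 and 0.08. The count thus depends on the probe set for CHORDC1 and DNAJB6. HSPA4L alone was at least 1.5-fold higher there, from 33.3, below the table's median signal, to 82.5, where 4.79% of all genes were. In NB-39-nu FKBP4, HSPA1A/HSPA1B and HSPA4 were at least 1.5-fold lower, against 8.49% of all genes, and DNAJB6 and HSF1 higher, against 12.9%. The HSPA4 probe set used had a log2 ratio of -0.77 there, and its others above the filter 0.89, -0.51 and -1.02. In SH-SY5Y HSPA1A/HSPA1B was lower, against 3.81% of all genes, and no member higher, against 4.88%. In SK-N-DZ no member was past 1.5-fold, where 4.31% of all genes were higher and 4.39% lower.

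The direction of small ratios also differed by line. In NB-39-nu 26 of 37 members were lower and the median member was at -0.13, against 0.03 for all tested genes, of which 52.8% were higher. In SH-SY5Y 24 were higher, where 52.4% of all genes were, with a median of 0.11 against 0.02. In SK-N-BE 16 were higher, where 52.7% of all genes were, with a median of -0.07 against 0.02. In SK-N-DZ 26 were higher, where 55.1% of all genes were, with a median of 0.07 against 0.03. FKBP4, a co-chaperone of steroid receptors, was among the lowest ratios in NB-39-nu, at -0.60, where it went from 4351 to 2878. HSPB1 was among the lowest in SK-N-BE, where it went from 3815 to 2270. Its ratios were -0.36, 0.12, -0.75 and -0.01 in NB-39-nu, SK-N-DZ, SK-N-BE and SH-SY5Y. DNAJB4 was likewise lower in SK-N-BE, with 739.5 and 461, while SK-N-DZ gave 1017 and 1193.

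**Figure D4:**
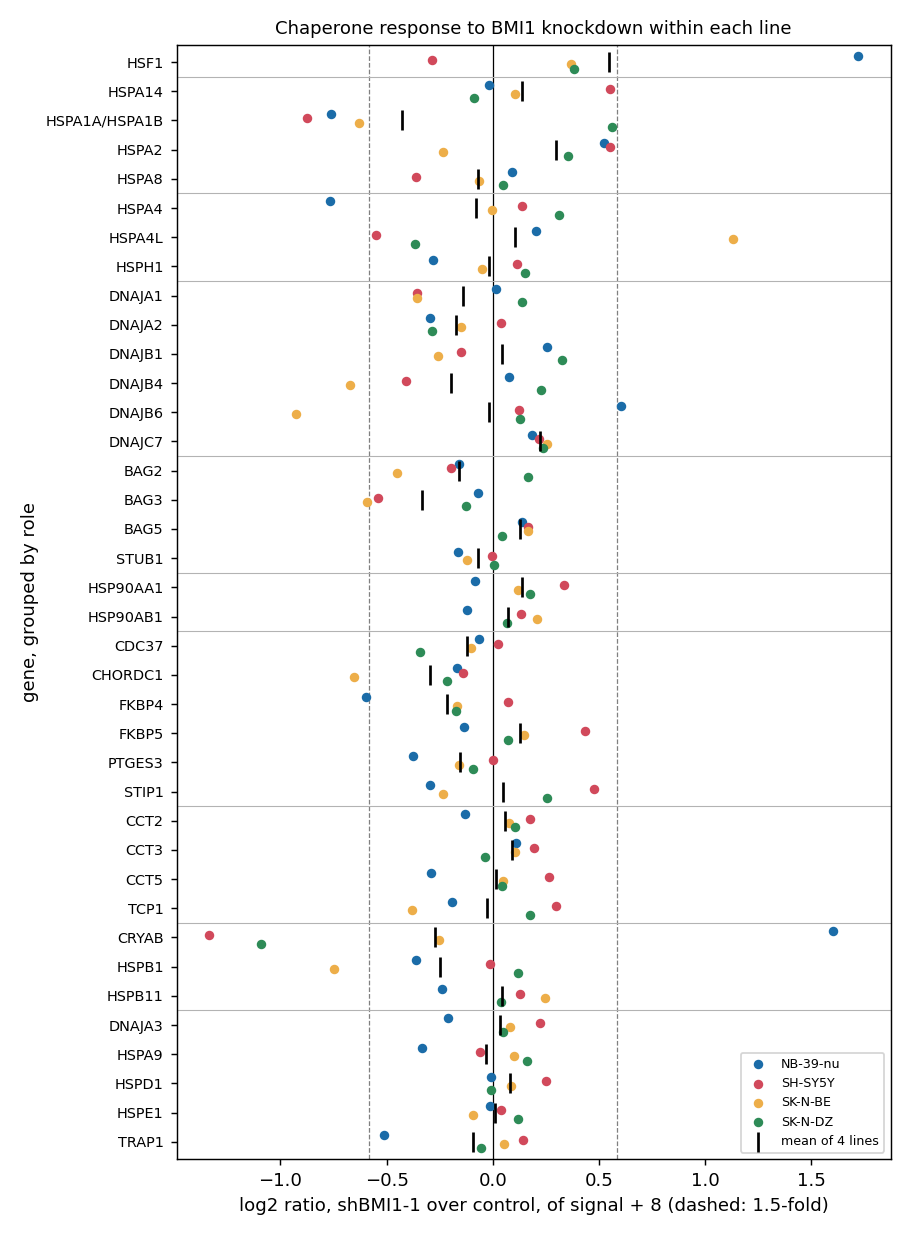
Log2 ratio of shBMI1-1 over control, of signal + 8, for the 38 measured members grouped by role, with 1 coloured point per line, a black tick at the mean of 4 lines and dashed lines at 1.5-fold. Most points lie within the dashed lines and most means lie near 0, while HSF1 in NB-39-nu, at 1.72, HSPA4L in SK-N-BE, at 1.13, and the dim CRYAB in NB-39-nu, at 1.60, stand far to the right.

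Among the members, 16 tested genes belong to a list of classical HSF1 targets. In SK-N-BE, 12 of these were lower and 4 higher, where 52.7% of all tested genes were higher, and their median log2 ratio was -0.20. At least 1.5-fold lower were 5 of them, where 3.36% of all tested genes were. The 21 other members had a median of 0.05 with 1 at least 1.5-fold lower. In SK-N-DZ, 5 were lower and 11 higher, where 55.1% of all tested genes were higher. The medians there were 0.12 for the targets and 0.05 for the other members. In NB-39-nu the medians were -0.08 and -0.16, and in SH-SY5Y -0.08 and 0.14. The targets therefore had no common direction over the lines, and the difference between lines was not tested.

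By role, the widest mean ratios were those of HSF1 and HSPA1A/HSPA1B given above, and none passed. HSP90AA1 and HSP90AB1 were at 0.14 ± 0.17 and 0.07 ± 0.14 (SD, n = 4 lines). On the probe sets used, the 4 CCT subunits ran from -0.03 ± 0.32 for TCP1 to 0.09 ± 0.10 for CCT3. Other probe sets above the filter averaged 0.33 and 0.26 for TCP1, 0.50 for CCT5 and 0.05 for CCT2. Those of TCP1 and CCT5 were higher in all 4 lines, so the CCT range depends on the probe set. The 5 mitochondrial chaperones ran from -0.09 ± 0.29 for TRAP1 to 0.08 ± 0.12 for HSPD1. Of the HSP90 co-chaperones, CHORDC1 was lowest and FKBP5 highest, at 0.13 ± 0.23. Apart from HSF1, HSPA1A/HSPA1B, BAG3 and CHORDC1, the tested members ran from -0.25 for HSPB1 to 0.30 for HSPA2. Besides the probe sets used, 38 others above the filter, for 25 members, can be set against them. Their mean ratio had the same sign in 20 cases and the opposite sign in 18, and in 26 cases it lay within 0.2 of the one used.

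Chaperones outside the list were followed through 72 further genes, of which 60 were tested: 0 passed, 31 were higher and 29 lower in the mean. At an unadjusted p below 0.05 there were 3 higher (BAG1, SGTA and PDIA3) and 4 lower (AFG3L2, CLPX, DNAJC3 and YME1L1), a share near the 9.33% of all tested genes. Other probe sets above the filter averaged 0.60 and -0.29 for BAG1, -0.04 for CLPX, and -0.11 and -0.14 for YME1L1. The direction of BAG1 thus depends on the probe set. AFG3L2, a protease of the inner mitochondrial membrane, was the lowest of the mitochondrial chaperones and proteases, with log2 ratios from -0.82 in SK-N-DZ to -0.24 in SH-SY5Y and a mean of -0.58 ± 0.25 (SD, n = 4 lines; limma adjusted p = 0.277). Its second probe set above the filter had a mean of -0.20. GRPEL2, an exchange factor of HSPA9, was highest there at 0.15. PDIA3, which forms disulfide bonds in glycoproteins, was the highest of 15 endoplasmic reticulum chaperones at 0.41 ± 0.12 (SD, n = 4 lines; limma adjusted p = 0.325), with its other probe sets at 0.26 and 0.13, and DNAJC3, a co-chaperone of the HSP70 of that compartment, was lowest at -0.29.

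None of the genes in the other lists passed either. Further HSP70, HSP40 and small HSP genes ran from HSPB8, the BAG3 partner, at -0.56 ± 0.50 (SD, n = 4 lines) to DNAJB2 at 0.52 ± 0.52. Further cytosolic co-chaperones ran from CDC37L1 at -0.30 ± 0.24 to HSPBP1, an exchange factor of HSP70, at 0.45 ± 1.07. The remaining CCT subunits ran from CCT6A at -0.05 to CCT8 at 0.11, and prefoldin, which hands clients to CCT, from PFDN4 at -0.08 to PFDN2 at 0.15. For levels in SH-SY5Y, where 21.7% of all genes were lower and 30.2% higher, 6 of the 15 endoplasmic reticulum chaperones were lower and 4 higher. Of 10 further mitochondrial chaperones and proteases 1 was lower and 1 higher, of 13 further HSP70, HSP40 and small HSP genes 5 and 4, of 13 further cytosolic co-chaperones 5 and 3, and of 5 prefoldin subunits 2 and 0. Whether these shares differ from that of the listed members was not tested.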

How the data were processed

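Expression was measured on Affymetrix HG-U133 Plus 2.0 arrays. The deposited values are linear array intensities (signal), made by the authors with GCOS and MAS5, per the submitters' processing notes, which give no version. The values have a trimmed mean of 500 on each array after 2% is taken off each end. No detection calls were used.

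The platform annotation names 1 gene for 41097 of 54675 probe sets, several for 1801 and none for 11777, and 41043 of the first kind took the current RefSeq symbol. Probe sets of several genes were left out, except those of HSPA1A/HSPA1B, HSPA8, TCP1 and BMI1. Per gene, the probe set with the highest mean log2(signal + 8) was used, on which scale folds of dim genes are understated. Genes above the median gene (7.49) were tested. In R 4.3.3, limma 3.58.1 fitted treatment with the line as block (eBayes with trend) and p-values were adjusted by Benjamini-Hochberg at 0.05 over all genes tested. The fit was also run on simulated data. The changes planted there were larger than the mean ratio of BMI1 or of any member, so that run does not bear on smaller changes. The labels name the line of each array, so the line pairs the arrays.

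Members and lists were chosen with earlier results of these data known. Arrays are given for members past the threshold, with the same direction in 4 lines, or at least 2-fold changed in a line with both signals above the table's median, and for BMI1. Members whose line levels are given with signals, and any gene said to be so, were chosen after their values were seen. Of the other chaperone lists the highest and lowest are named, and those at an unadjusted p below 0.05 were added. Promoter sequences are from RefSeq, GRCh38.p14. Alternatives were the pseudocount, filter, quantile normalization, mean of probe sets, no block, no trend, array weights and each line left out.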

Additional observations from a re-analysis of the deposited data

Results flagged for a closer look

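In 114 sets of 4 values, 1 value per line, 4 held a value whose gap to its nearest neighbour was over 0.829 of the set's range, a limit that chance passes in about 5% of sets. HSPA1A/HSPA1B had a log2 ratio of 0.56 in SK-N-DZ, with -0.87 to -0.63 in the other lines. The control signal of HSPA8 was 14026 in SH-SY5Y, with 44856 to 54757 in the others. CHORDC1 had a log2 ratio of -0.66 in SK-N-BE, with -0.22 to -0.14 elsewhere. CRYAB had a knockdown signal of 63.6 in NB-39-nu, with 25.3 to 28.8 elsewhere, all below the table's median signal.

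DNAJB6 was at least 1.5-fold changed in opposite directions in 2 lines, with log2 ratios of 0.61 in NB-39-nu and -0.93 in SK-N-BE. This difference was not tested, because each line has 1 array per condition. The brighter probe sets shared with TMEM135 read 0.10 and 0.22 in NB-39-nu and -0.41 and 0.08 in SK-N-BE.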

How the results depend on the processing

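With 1 array per line and condition, the number of arrays limits the precision, and dim genes such as HSF1 and CRYAB most. The count of 0 members past the threshold held under the 13 alternatives run. Of all genes 1 passed, against 0 with no pseudocount, the mean of all probe sets, no trend, or no replicate block (pairing by line dropped, 0 members too), 2 with the table median as pseudocount, no filter, the 75th percentile filter, quantile normalization or array weights, and 0 to 2 with a line left out. Members past 1.5-fold were 5 in NB-39-nu, or 3 with the table-median pseudocount, the 75th percentile filter or quantile normalization. They were 1 in SH-SY5Y, or 2 with no pseudocount or no filter, 7 in SK-N-BE, or 4 with the 75th percentile filter, and 0 in SK-N-DZ, or 1 with no filter or the mean of probe sets. Members lower in SK-N-BE numbered 15, or 12 with quantile normalization (23.8% of all genes) and 11 with no trend (23.3% of all genes). With a line left out they numbered 13 to 26, the latter without SH-SY5Y. The mean ratio of HSPA8 was -0.07 and ran from -0.13 to 0.024 with a line left out, the latter without SH-SY5Y. Members differing between lines ranged from 31 to 36, those lower in SH-SY5Y from 20 to 28, those higher in NB-39-nu from 17 to 27 and in SK-N-DZ from 15 to 28, and the median ratio from -0.06 to 0.07. The other named members kept their direction, but some mean ratios moved by over 1.5 times. CHORDC1 went from -0.30 to -0.18 without SK-N-BE and to -0.016 with the mean of probe sets. With the mean of probe sets DNAJC7 went from 0.22 to 0.050 and BAG5 from 0.13 to 0.23. HSPA8 went from -0.07 to -0.18 with quantile normalization. HSF1 went from 0.55 to 0.15 without NB-39-nu, 0.82 without SH-SY5Y and 0.25 with the mean of probe sets. HSPA1A/HSPA1B went from -0.43 to -0.76 without SK-N-DZ, -0.28 without SH-SY5Y and -0.22 with the mean of probe sets. The cause of these changes was not tested.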
